A study of Arabidopsis thaliana with 20 samples.

Results

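Gibberellin (GA) was added to wild-type (WT) *Arabidopsis thaliana* Col-0 seeds whose own GA synthesis was blocked by paclobutrazol (PAC), and the transcripts of whole seeds were compared with those of WT seeds on PAC alone. The comparison rested on 4 of the 20 RNA-seq samples of the series, 2 from WT seeds on 5 µM PAC with 10 µM GA and 2 from WT seeds on 5 µM PAC, chosen by these labels. All seeds were taken 20 hr after plating. The other groups set beside them were quintuple *Δdella* seeds (*rgl2 rga gai rgl1 rgl3*, Col-0 background) on PAC + GA, PAC or MS, WT seeds on 0.7 mg/ml of an extract of the bacterium *Pseudomonas aeruginosa* (*PAO1* extract) with or without 10 µM GA, and WT seeds on plain medium (MS). Each group had 2 biological replicates, but the deposited table holds 1 FPKM value per gene and group (mapped fragments, scaled by transcript length and by library size), for which the authors pooled the replicates. No value below therefore has an error, and no difference was tested. A gene is called higher or lower where PAC + GA differed from PAC by at least 2-fold on the log2(FPKM + 1) scale, with at least 1 FPKM in 1 of the 2 groups. Adding 1 FPKM understates the fold of genes at low level.

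GA is the hormone that starts germination. It binds the GID1 receptors, and the bound receptor hands DELLA proteins (RGL2, RGA, GAI, RGL1 and RGL3) to an F-box ubiquitin ligase for destruction. DELLA proteins otherwise hold back germination, in part by keeping up the abscisic acid (ABA) response, the programme of late seed maturation with its storage proteins and desiccation protectants. PAC inhibits *ent*-kaurene oxidase, an early enzyme of GA synthesis, so that DELLA proteins accumulate, and added GA bypasses that block. In *Δdella* seeds these targets of GA are missing in every tissue, so that the mutant shows what remains of a response without any DELLA, not the part of one of them.

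The transcripts of the 5 mutated genes were present but lower in *Δdella* seeds, with a summed level of 55.1 FPKM on PAC + GA and 52.8 FPKM on PAC, against 385 and 277 FPKM in WT seeds on the same media. The reduction was uneven. On PAC, *RGL2* was at 4.91 FPKM in *Δdella* seeds and 147 FPKM in WT seeds, and *RGA* was at 22.1 and 43.8 FPKM. The seed label held: *CRA1* and *CRU3*, which encode seed storage globulins, were among the abundant WT transcripts, and markers of pollen and root (4 genes) lay at or under 0.0672 FPKM in WT seeds on PAC + GA and were listed at 0 in WT seeds on PAC. Of 3 rosette leaf markers, *CA1* was listed at 0 and *LHCB1.1* was at 0.251 FPKM on PAC + GA and 0.306 FPKM on PAC, while *RBCS1A*, also used by greening embryos, was at 1756 and 1966 FPKM. Of 3 seed coat markers, *BAN* and *TT12* did not exceed 0.107 FPKM and *MUM4* was at 6.60 FPKM on PAC + GA and 5.83 FPKM on PAC. Of 4 endosperm markers, *EPR1* was at 834 FPKM on PAC + GA and 1201 FPKM on PAC, *EXPA2* and *MAN7* were higher with GA, and *ZOU*, an early endosperm regulator, was listed at 0. In such whole-seed RNA, fewer cells of a type and less RNA per cell cannot be told apart.

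The DNA upstream of 4 called genes is shown, since genes of storage, desiccation and cell wall loosening are the ones on which the results below turn. These 4 were picked by hand and not by the size of their difference. The sequences are the 250 bases before the RefSeq gene start (assembly TAIR10.1), 5′ to 3′ on the strand of the gene. Capitals mark, on either strand, the RY element CATGCA (bound by ABI3-type maturation factors) and the G-box CACGTG in *SESA3*, a 2S albumin (chr4:13611546-13611795, plus strand), both of these, the ABA-response element ACGTGTC and the GA-response element TAACAAA in *OLEO1*, an oleosin (chr4:12900180-12900429, plus strand), the ABA-response element and the G-box in *EM6*, a late embryogenesis abundant protein (chr2:16780369-16780618, minus strand), and TAACAAA and the word GGCCCA in *XTH31*, a xyloglucan endotransglucosylase/hydrolase (chr3:16448845-16449094, minus strand). Matches to a word may overlap, as the run CATGCATGCATGCA in *SESA3* and the joined ABA-response element and G-box in *OLEO1* and *EM6* do.
SESA3: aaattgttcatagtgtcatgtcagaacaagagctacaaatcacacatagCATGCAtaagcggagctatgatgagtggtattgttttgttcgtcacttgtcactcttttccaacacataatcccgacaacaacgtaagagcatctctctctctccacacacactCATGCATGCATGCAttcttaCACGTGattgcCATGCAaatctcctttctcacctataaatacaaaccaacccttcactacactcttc
OLEO1: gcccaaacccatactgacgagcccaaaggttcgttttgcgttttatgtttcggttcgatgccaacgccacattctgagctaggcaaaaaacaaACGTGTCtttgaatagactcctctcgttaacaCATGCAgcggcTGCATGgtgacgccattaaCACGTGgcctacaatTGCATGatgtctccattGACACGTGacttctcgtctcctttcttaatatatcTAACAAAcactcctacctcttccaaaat
EM6: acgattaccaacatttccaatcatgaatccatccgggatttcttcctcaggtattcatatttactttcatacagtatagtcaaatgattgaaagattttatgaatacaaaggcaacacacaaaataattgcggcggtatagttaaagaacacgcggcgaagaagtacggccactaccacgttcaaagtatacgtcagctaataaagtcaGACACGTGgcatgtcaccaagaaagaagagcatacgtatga
XTH31: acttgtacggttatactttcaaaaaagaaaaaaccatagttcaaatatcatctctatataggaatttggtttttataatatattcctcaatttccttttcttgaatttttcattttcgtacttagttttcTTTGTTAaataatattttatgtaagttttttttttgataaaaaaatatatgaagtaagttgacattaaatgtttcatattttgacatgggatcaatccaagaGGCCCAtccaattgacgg
The first 3 of these genes were lower with GA and *XTH31* was higher, so TAACAAA stood before a gene of each kind. Genes with wider differences can hold fewer such words. *SESA3* (log2 difference -2.10) held 7 CATGCA matches and *CRU3* (-2.94) held 1. The late embryogenesis abundant gene *M17* (-2.63) held none of the words searched for.

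Among 16815 genes at 1 FPKM or more on either medium, 509 were higher on PAC + GA than on PAC (3.03%) and 329 were lower (1.96%). A 4-fold difference was reached by 101 genes that were higher and 80 that were lower. The median difference over all 16815 genes was -0.00 on the log2(FPKM + 1) scale, with the 5th and 95th percentiles at -0.60 and 0.76. Many of the widest differences belonged to short RNA genes: of the 24 genes with the widest differences at 5 FPKM or more, 16 were snoRNA genes, 2 were miRNA genes and 2 were protein-coding genes of 300 bases or more in RefSeq, and 23 were listed at 0 on one of the media. The account below therefore keeps to protein-coding genes of 300 bases or more in RefSeq, a restriction chosen after the values were seen. Of 16220 such genes, 457 were higher (2.82%) and 289 were lower (1.78%). RefSeq gene lengths can exceed those of the models on which FPKM was computed: 36 of the 16220 genes span under 300 bases in the deposited table, 6 of the 457 and 5 of the 289 among them. One is AT5G03204, 1 of the 2 protein-coding genes just counted, which spans 111 bases there. The other of these 2, AT1G29080, encodes a papain-type protease and had the widest rise among protein-coding genes of 300 bases or more (log2 difference 5.43). It was at 71.2 FPKM on PAC + GA, 0.673 FPKM on PAC and 66.6 FPKM on MS.

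**Figure D1:**
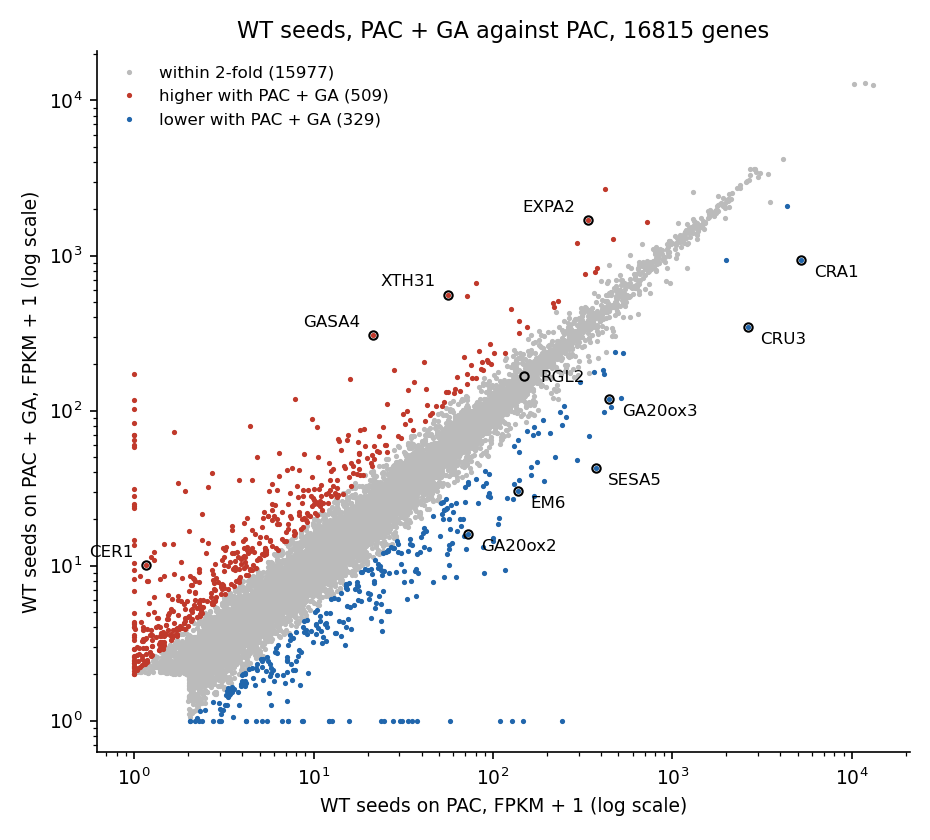
FPKM + 1 of each gene in WT seeds on PAC + GA (vertical axis) against PAC (horizontal axis), both on a log scale, 1 point per gene and 1 pooled value per group, with the 509 genes that were higher in red and the 329 that were lower in blue. Most genes lie along the diagonal, while *CRA1*, *CRU3*, *SESA5* and *EM6* lie below it and *GASA4*, *XTH31* and *EXPA2* above it.

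Across both genotypes, the 457 genes that were higher with GA had a median level of 11.1 FPKM on PAC + GA and 2.95 FPKM on PAC in WT seeds, beside 13.5 FPKM on MS. In *Δdella* seeds the same genes were at 26.1 FPKM on PAC + GA, 25.7 FPKM on PAC and 26.4 FPKM on MS. The 289 genes that were lower with GA had a median of 5.83 FPKM on PAC + GA, 19.7 FPKM on PAC and 4.64 FPKM on MS in WT seeds. Their medians in *Δdella* seeds were 1.64, 1.71 and 1.76 FPKM on the same media. The PAC and PAC + GA values chose these genes, so only the MS and *Δdella* medians are a further readout. On these medians PAC alone stood apart in WT seeds, and the *Δdella* medians lay beyond the WT ones in both sets, above them for the genes that were higher with GA and below them for those that were lower.

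Storage proteins, which feed the seedling and are made while the seed matures, showed the most uniform difference. All 8 genes were lower with GA, where 1.96% of all genes were, with a median of -2.62 on the log2 scale, and their summed level was 1474 FPKM on PAC + GA, 9058 FPKM on PAC and 899 FPKM on MS. This sum made up 0.157% of all FPKM on PAC + GA and 1.03% on PAC. *CRA1* (AT5G44120, TAIR10 chromosome 5, 17756264 to 17758288), a cruciferin, was at 927 FPKM on PAC + GA, 5245 FPKM on PAC and 367 FPKM on MS. *CRU3* (AT4G28520), another cruciferin, was at 344, 2639 and 175 FPKM on these media, a log2 difference of -2.94 between the first and the second. The widest difference was that of the 2S albumin *SESA5* (AT5G54740), with 41.4 FPKM on PAC + GA, 373 FPKM on PAC and 81.0 FPKM on MS (log2 difference -3.14). The cruciferins were still above their MS level on PAC + GA, except *CRU2*, while the 2S albumins were below it. *SESA1* to *SESA4* are near-identical neighbours on chromosome 4, and how shared reads were split among them is not known here.

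Proteins that coat oil bodies, the lipid stores of the seed, went the same way. Of 6 measured genes 5 were lower with GA, where 1.96% of all genes were, with a median of -2.05. *OLEO1* was at 67.4 FPKM on PAC + GA, 342 FPKM on PAC and 67.7 FPKM on MS, and *OLEO4* was at 11.9, 69.9 and 19.7 FPKM. The caleosin *CLO1* was at 5.83 FPKM on PAC + GA and 23.3 FPKM on PAC. *OLEO3* was within 2-fold (-0.66), and the steroleosin *HSD1* was listed at 0. The seed-specific vacuolar water channels *TIP3;1* (7.46 FPKM on PAC + GA, 61.4 FPKM on PAC) and *TIP3;2* (7.47 and 52.2 FPKM) were lower too. *TIP4;1*, the other tonoplast aquaporin over the filter, had the opposite sign within 2-fold (1.55 and 0.727 FPKM, 0.56). For each of *OLEO1*, *OLEO4*, *CLO1*, *TIP3;1* and *TIP3;2*, the level on PAC + GA was closer to the MS level than to the PAC level.

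Late embryogenesis abundant (LEA) proteins protect cells while they dry, and many are induced by ABA. Of 38 LEA genes over the filter (56 in the table), 14 were lower with GA, 2 were higher and 22 were within 2-fold, with a median of -0.59. Over all genes, 1.96% were lower and 3.03% were higher. The ABI5 target *EM1* was at 32.4 FPKM on PAC + GA, 129 FPKM on PAC and 20.7 FPKM on MS, and its relative *EM6* (AT2G40170, chromosome 2, 16779552 to 16780258) was at 29.2, 137 and 34.3 FPKM. The dehydrin *RAB18* was at 120 FPKM on PAC + GA, 517 FPKM on PAC and 121 FPKM on MS. *M17* (46.9 and 295 FPKM) and AT2G42560 (2.77 and 23.2 FPKM) had the widest differences, -2.63 and -2.68. *LEA18*, the most abundant member, was at 930 FPKM on PAC + GA, 1990 FPKM on PAC and 432 FPKM on MS. Both members that were higher were low on PAC + GA, AT2G03850 at 1.63 FPKM and AT4G38410 at 1.83 FPKM. The LEA genes were thus split between lower ones and those within 2-fold, and most stayed within 2-fold.

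On the log2(FPKM + 1) scale, regulators of maturation (median -0.66) and of dormancy and light (-0.90) had smaller medians in size than storage and oil body genes. *ABI3* and *ABI5*, transcription factors through which ABA maintains the maturation programme, were at 136 and 47.6 FPKM on PAC + GA, against 218 and 70.4 FPKM on PAC, and neither passed 2-fold (-0.68 and -0.55). *FUS3* was at 0.437 FPKM on PAC + GA and 1.28 FPKM on PAC, and *EEL*, a bZIP factor, was at 9.22 and 19.0 FPKM. *ABI4*, an AP2-type factor of the ABA response, went the other way and was called higher, at 107 FPKM on PAC + GA, 41.7 FPKM on PAC and 143 FPKM on MS. Among 5 dormancy and light regulators, *MFT* (5.52 FPKM on PAC + GA, 19.7 FPKM on PAC) and *SOM* (177 and 364 FPKM) were lower, where 1.96% of all genes were. Both are known to act between light, ABA and GA in seeds. *DOG1*, which sets dormancy depth, was at 0.126 FPKM on PAC + GA and 1.11 FPKM on PAC, *PIF1* was at 87.0 and 97.0 FPKM, and *SPT* was at 45.5 and 28.1 FPKM. As ratios of FPKM without the added 1, PAC over PAC + GA was 8.80 for *DOG1*, 3.57 for *MFT* and 2.92 for *FUS3*, beside 9.01 for *SESA5*. The added 1 weighs most on scarce transcripts such as *DOG1* and *FUS3*. Of 8 ABA metabolism genes over the filter only *NCED3*, a rate-limiting ABA synthesis enzyme, was called. It was higher, where 3.03% of all genes were, at 1.28 FPKM on PAC + GA and 0.111 FPKM on PAC. *CYP707A2*, the main ABA-degrading enzyme of imbibed seeds, was at 4.93 and 2.60 FPKM (0.72), and *NCED6* was at 0.55 and 0.65 FPKM, under the filter.

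**Figure D2:**
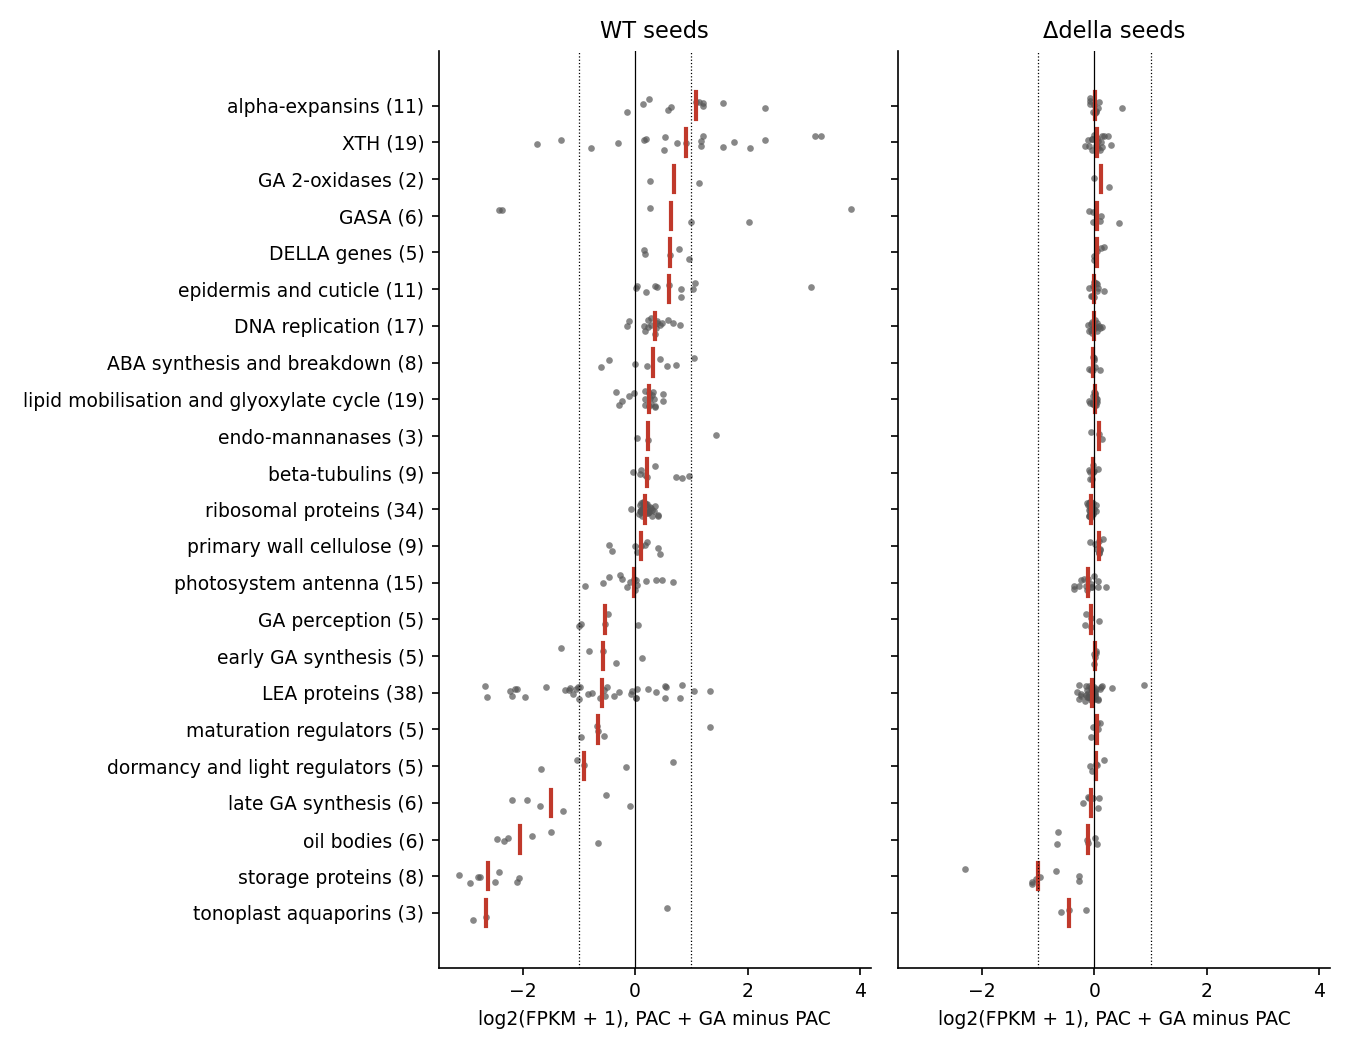
Log2(FPKM + 1) difference, PAC + GA minus PAC, for each gene over the filter in each list (grey points, number in parentheses) and the list's median (red bar), in WT and in *Δdella* seeds, with dotted lines at 2-fold. In WT seeds storage proteins, oil bodies and tonoplast aquaporins have medians at or below -2.05 and expansins one of 1.09, while in *Δdella* seeds most points lie near 0.

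Of the genes of the GA pathway itself, those for synthesis and perception were mostly below their PAC level when GA was supplied. The late synthesis enzymes, which make bioactive GA, were lower in 4 of 6 measured genes (1.96% of all genes), with a median of -1.49. *GA20ox2* (AT5G51810, chromosome 5, 21055188 to 21056808) was at 14.9 FPKM on PAC + GA, 71.9 FPKM on PAC and 5.43 FPKM on MS, and *GA20ox3*, the most abundant of the GA 20-oxidases, was at 117, 444 and 53.7 FPKM. *GA3ox1*, which takes the last step to bioactive GA, was at 28.2 FPKM on PAC + GA, 93.9 FPKM on PAC and 22.4 FPKM on MS, and *GA20ox1* was at 20.6, 51.3 and 15.5 FPKM. The other GA 3-oxidase of germinating seeds, *GA3ox2*, was level, at 88.9 FPKM on PAC + GA, 94.6 FPKM on PAC and 122 FPKM on MS. *GA3ox4* was at 0.439 FPKM on PAC + GA and 1.05 FPKM on PAC, and *GA20ox4*, *GA20ox5* and *GA3ox3* were listed at 0 in both groups.

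Of 5 early synthesis genes only *CPS*, which takes the first committed step, was called. It was lower, where 1.96% of all genes were, at 0.675 FPKM on PAC + GA and 3.16 FPKM on PAC. The gene of the enzyme that PAC inhibits, *KO*, was at 99.9 FPKM on PAC + GA, 177 FPKM on PAC and 86.1 FPKM on MS (-0.82). *KS* (-0.34), *KAO1* (0.13) and *KAO2* (-0.57) were within 2-fold. Of the receptors, *GID1B* was at 2.65 FPKM on PAC + GA and 6.29 FPKM on PAC, a difference just inside 2-fold on the log2(FPKM + 1) scale, and *GID1A* was at 24.8 and 49.5 FPKM (-0.97). *GID1C* (-0.54) and *SLY1*, the F-box protein that recognises DELLA (-0.49), followed in sign, and its homologue *SNE* was level (0.05).

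The DELLA genes had the opposite sign: all 5 were above their PAC level on PAC + GA, although none passed 2-fold (median 0.61). *GAI* was at 57.3 FPKM on PAC + GA, 29.1 FPKM on PAC and 70.2 FPKM on MS, and *RGA* was at 75.6, 43.8 and 85.9 FPKM. *RGL3* was at 82.3 FPKM on PAC + GA, 53.4 FPKM on PAC and 97.4 FPKM on MS. *RGL2*, the DELLA with the main part in germination and the most abundant transcript of the 5, was at 166, 147 and 170 FPKM, and *RGL1* was at 4.43, 3.89 and 4.69 FPKM. These are transcript levels, which do not report the DELLA proteins. GA 2-oxidases, which inactivate GA, were scarce: 2 of 8 passed the filter, *GA2ox8* at 1.20 FPKM on PAC + GA and listed at 0 on PAC, and *GA2ox2* at 1.06 and 0.72 FPKM.

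**Figure D3:**
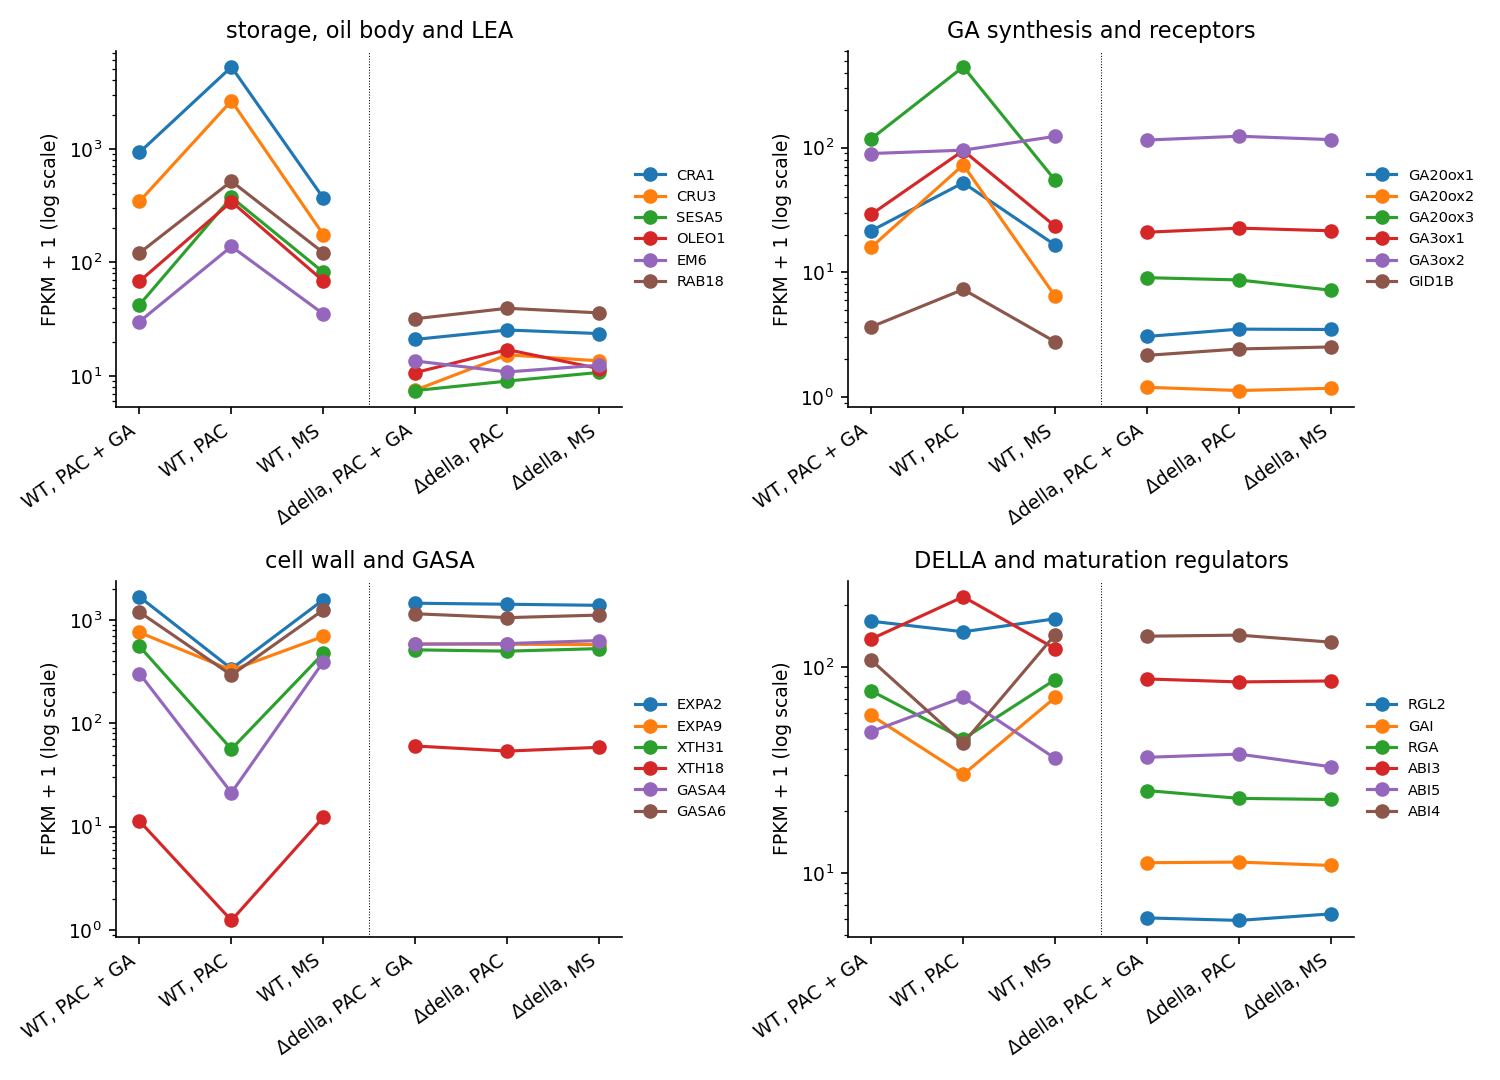
FPKM + 1 (log axis) of genes named in the text, on PAC + GA, PAC and MS in WT seeds and in *Δdella* seeds, 1 pooled value per group. In WT seeds the PAC value of most genes stands apart from the PAC + GA and MS values, with *GA3ox2* and *RGL2* nearly level, while in *Δdella* seeds most lines are flat, with *CRU3* an exception at 6.55 FPKM on PAC + GA and 14.4 FPKM on PAC.

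Among genes that loosen and rebuild the cell wall, several abundant ones were higher with GA. Of 11 alpha-expansins over the filter (25 in the table), proteins that let the wall creep as cells swell, 6 were higher with GA, where 3.03% of all genes were, and none was lower (median 1.09). *EXPA2* (AT5G05290, chromosome 5, 1568694 to 1569864), an endosperm expansin, was at 1686 FPKM on PAC + GA, 338 FPKM on PAC and 1579 FPKM on MS. *EXPA1* was at 1650, 719 and 1990 FPKM, *EXPA9* was at 761, 327 and 697 FPKM, and *EXPA3* was at 508, 231 and 662 FPKM. *EXPA8* was at 466 FPKM on PAC + GA and 218 FPKM on PAC, and *EXPA14*, a scarce member, was at 2.41 and 0.161 FPKM. The abundant expansins thus lay near their MS level once GA was present.

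Xyloglucan endotransglucosylase/hydrolases (XTHs) cut and rejoin the xyloglucan of the wall. Of 19 measured XTH genes 9 were higher and 2 were lower (median 0.90), against 3.03% and 1.96% of all genes. *XTH31* (AT3G44990, chromosome 3, 16446975 to 16448764) was at 558 FPKM on PAC + GA, 55.5 FPKM on PAC and 477 FPKM on MS, a log2 difference of 3.31. *XTH18* was at 10.3, 0.236 and 11.4 FPKM, its neighbour in the family *XTH17* was at 3.94 FPKM on PAC + GA and 4.20 FPKM on MS and was listed at 0 on PAC, and *XTH5* was at 73.6, 17.2 and 115 FPKM. The 2 that were lower, *XTH25* (3.35 FPKM on PAC + GA, 13.6 FPKM on PAC) and *XTH11* (3.93 and 11.3 FPKM), were not abundant. Among endo-mannanases, which digest the mannan of endosperm walls, *MAN7* was at 58.3 FPKM on PAC + GA, 20.8 FPKM on PAC and 60.6 FPKM on MS. It was the one call among 3 measured, where 3.03% of all genes were higher.

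The GASA genes encode small cysteine-rich peptides, several of them named for their induction by GA, and they did not move as a family. *GASA4* (AT5G15230) was at 304 FPKM on PAC + GA, 20.3 FPKM on PAC and 396 FPKM on MS, and its log2 difference of 3.84 was the widest of all genes in the lists. *GASA6* was at 1199, 293 and 1260 FPKM. *GASA3* (4.10 FPKM on PAC + GA, 25.2 FPKM on PAC) and its neighbour *GASA2* (0.333 and 6.15 FPKM) were lower, and *GASA14* (57.8 and 28.5 FPKM) lay just inside 2-fold. *GASA1*, at 4.91 and 3.90 FPKM, was level. Of 6 measured members 2 were thus higher and 2 were lower, against 3.03% and 1.96% of all genes.

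Of 11 epidermis and cuticle genes, all had a positive difference and 3 were called higher (median 0.59), against 3.03% of all genes. *CER1*, needed for the alkanes of cuticular wax, was at 9.09 FPKM on PAC + GA, 0.160 FPKM on PAC and 9.33 FPKM on MS. *BDG1*, a cutin gene, was at 11.9 and 5.15 FPKM and *PDF1*, an epidermal marker, was at 200 and 96.9 FPKM on PAC + GA and PAC. The epidermal regulators *ATML1* (0.20) and *PDF2* (0.04) were within 2-fold. The summed level of the epidermal markers *PDF1*, *PDF2* and *ATML1* was 338 FPKM on PAC + GA and 226 FPKM on PAC. The part of epidermal cell number in the cuticle genes was not tested.

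Other lists tied to growth after germination had no member past 2-fold on the log2(FPKM + 1) scale. Reserve mobilisation was one: the 19 genes of lipid breakdown and the glyoxylate cycle had a median of 0.25, with isocitrate lyase *ICL* at 12735 FPKM on PAC + GA, 10278 FPKM on PAC and 10436 FPKM on MS, and malate synthase *MLS* at 3342, 3403 and 3077 FPKM. The 9 primary wall cellulose genes (median 0.11), the 9 beta-tubulins (0.20), 17 DNA replication genes (0.35), 34 ribosomal protein genes (0.18) and 15 photosystem antenna genes (-0.01) had none either. Within them, *TUB8* (17.0 FPKM on PAC + GA, 8.24 FPKM on PAC) and the antenna gene *LHCB4.3* (22.2 and 41.9 FPKM) came closest, in opposite directions. As ratios of FPKM without the added 1, *TUB8* (2.06) and the replication gene *CDC6* (2.26, at 1.97 and 0.874 FPKM) were past 2-fold. The DNA clamp *PCNA1* was at 24.9 and 13.9 FPKM.

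The same addition of GA to *Δdella* seeds, in libraries that share no sample with the WT ones, left few genes past 2-fold. Of 16987 genes over the filter 137 were called in either direction (0.806%). Of 16389 protein-coding genes of 300 bases or more, 16 were higher (0.0976%) and 31 were lower (0.189%). Of the 457 genes higher in WT seeds, 2 were higher and 5 were lower in *Δdella* seeds, and of the 289 lower in WT seeds, 3 were higher and 6 were lower. Pearson's r across 15753 genes between the differences of the 2 genotypes was 0.01. For some genes the *Δdella* level lay beyond both WT levels: *GASA4* was at 584 FPKM on PAC + GA and 593 FPKM on PAC in *Δdella* seeds, *CER1* at 92.8 and 96.4 FPKM, and *GA20ox2* at 0.195 and 0.126 FPKM. For others it was close to the WT level on PAC + GA, as for *XTH31* (516 and 501 FPKM in *Δdella* seeds) and *EXPA2* (1461 and 1428 FPKM). The difference between genotypes was not tested.

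Of the lists, storage proteins were the one with members past 2-fold in *Δdella* seeds, 4 of the 47 protein-coding genes called there, at a far lower level than in WT seeds. Their sum was 84.5 FPKM on PAC + GA and 174 FPKM on PAC in *Δdella* seeds, beside 149 FPKM on MS. All 4 were lower, the widest being *SESA4* at 3.85 FPKM on PAC + GA and 22.8 FPKM on PAC, beside 7.58 FPKM on MS. *CRA1* was at 20.1 and 24.5 FPKM and *SESA5* at 6.48 and 8.06 FPKM. Of the other lists, only the tonoplast aquaporins had a *Δdella* median beyond 0.2 in size (-0.44, 3 genes).

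GA was also added to WT seeds on the *PAO1* extract, another treatment that holds back germination. Of 16788 genes, 239 differed by 2-fold (1.42%). Of 16196 protein-coding genes of 300 bases or more, 44 were higher (0.272%) and 107 were lower (0.661%). Most of the lower ones were shared with PAC: 87 of the 107 (81.3%) were among the 289 genes that were lower on PAC + GA, and they made up 30.1% of these. Of the 44 higher ones, 22 (50%) were among the 457, making up 4.81% of them. The 289 had a median difference of -0.60 on the extract and the 457 of 0.24, and r across 15911 genes was 0.50. The storage proteins summed to 434 FPKM on extract + GA and 2924 FPKM on extract, and all 8 were lower there. The alpha-expansins summed to 7031 FPKM on extract + GA and 7506 FPKM on extract, beside 7618 FPKM on MS and 3077 FPKM on PAC, so that they were not low on the extract to begin with, and none was called there.

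On MS, where nothing was added, *Δdella* seeds differed from WT seeds in 633 genes that were higher (3.83%) and 254 that were lower (1.54%) of 16521. Of the 457 genes higher with GA on PAC, 151 were higher in *Δdella* seeds (33.0% of the 457 and 23.9% of the 633) and 3 were lower. Of the 289, 107 were lower in *Δdella* seeds (37.0% of the 289 and 42.1% of the 254) and 4 were higher. The medians were 0.58 and -0.72, and r across 15923 genes was 0.49. The late GA synthesis genes had a median of -1.25 and the storage proteins of -2.18 in this comparison. Genes within one library are not independent, so these values of r describe the tables and carry no p.

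**Figure D4:**
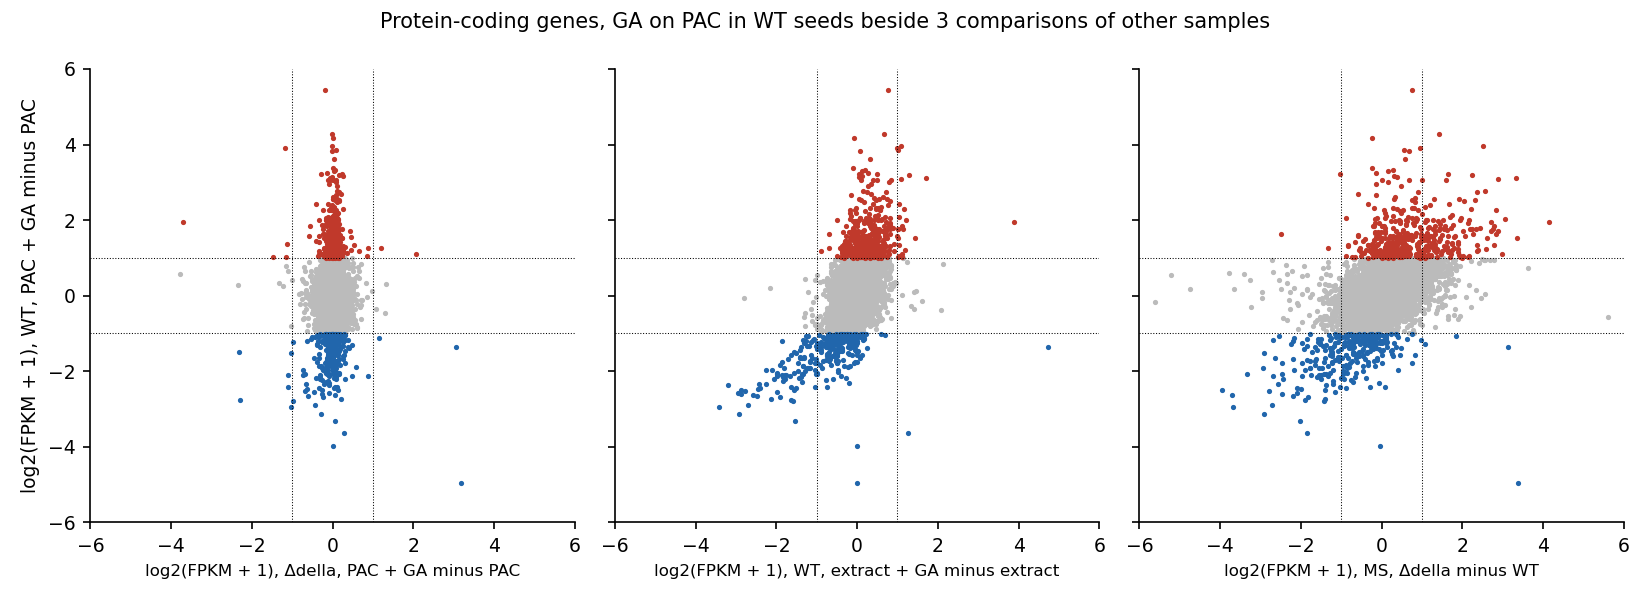
Log2(FPKM + 1) difference of each protein-coding gene of 300 bases or more, PAC + GA minus PAC in WT seeds (vertical axis), against 3 comparisons that share no sample with it (horizontal axes): PAC + GA minus PAC in *Δdella* seeds, extract + GA minus extract in WT seeds, and *Δdella* minus WT on MS. The cloud is narrow along the *Δdella* axis (r of 0.01) and slanted in the other panels (r of 0.50 and 0.49).

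Promoters of the 2 sets differed in the short words that they hold within 250 bases of the gene start, searched on both strands in 16219 promoters. The ABA-response element ACGTGTC was in 17.6% of the 289 promoters of genes that were lower and in 2.63% of the 457 that were higher, against 4.70% of all promoters. The G-box CACGTG was in 21.5% and 5.47%, against 7.93%, and these words can overlap, with 493 promoters holding both. The RY element CATGCA was in 25.6% of the lower set and also in 12.7% of the higher set, against 7.15%. Shares of the L1 box (TAAATGCA or TAAATGTA), bound by epidermal homeodomain factors, were 5.88% and 5.03%, against 4.43%. The GA-response element TAACAAA was in 12.1% of the lower and 17.5% of the higher set, against 15.9%. The word GGCCCA, frequent before ribosomal protein genes, was in 9.69% and 5.47%, against 18.6%.

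By list, CATGCA stood in 7 of 8 storage protein promoters and 6 of 6 oil body promoters, as in the *SESA3* and *OLEO1* sequences shown. It also stood in 5 of 11 epidermis and cuticle promoters, a list in which all differences were positive. *PDF1* and *CER1*, both called higher, were among these. ACGTGTC stood in 19 of 38 LEA promoters, *EM6* among them, and GGCCCA in 21 of 34 ribosomal protein promoters. TAACAAA stood in 7 of 19 XTH promoters, in *XTH31* at 120 bases before the start. *XTH11*, which was lower with GA, held it too, while *XTH17*, *XTH18* and *XTH5*, which were higher, did not. A match is a word in a window and not a shown binding site.

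**Figure D5:**
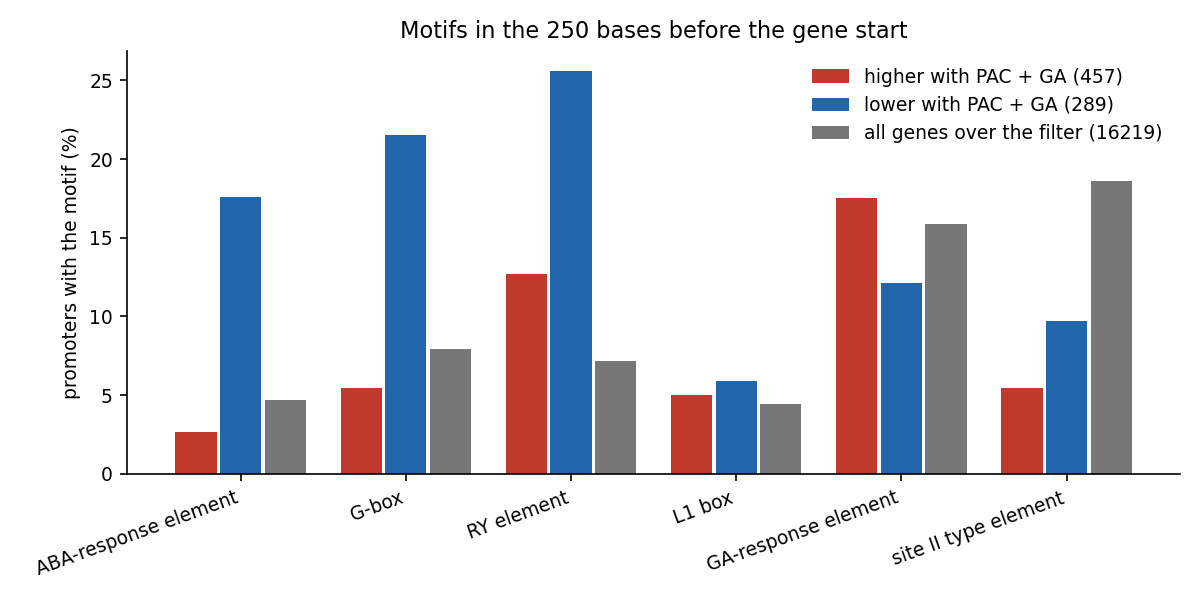
Share of promoters (percent, 250 bases before the gene start, both strands) that hold each word, for the 457 genes higher and the 289 genes lower on PAC + GA than on PAC in WT seeds and for all 16219 promoters. The ABA-response element, G-box and RY element bars are tallest for the lower set, and the GGCCCA bar is tallest for all promoters.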

How the data were processed

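WT and *Δdella* seeds were plated for 20 hr, RNA was extracted with phenol-chloroform, and TruSeq Stranded mRNA libraries were sequenced on a HiSeq4000 (single-end). Alignment to TAIR10 by the authors used TopHat, and Cuffdiff was run on pooled replicates (versions not given in the sources used here), and the deposited table holds FPKM for each of 45 pairs of the 10 groups. A gene's FPKM was the same in every pair. The table's own fold changes, test statistics, p-values, q-values and significance flags were not used.

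Differences were taken on log2(FPKM + 1) in Python 3.11.15 (numpy 2.4.6, pandas 2.3.3, matplotlib 3.10.9), as PAC + GA minus PAC, for genes at 1 FPKM or more in 1 of the 2 groups, with a call at 2-fold. With 1 pooled value per group there was no test, standard deviation or paired fit. Library depth is unknown: low values did not fall on whole multiples of a read (26.4% and 23.3% lay within 0.1 of one among values under 10 steps, where 20% would by even spread), so counts were not recovered. FPKM is per length, so levels of different genes can be set side by side. Names, gene types and promoters came from RefSeq on TAIR10.1 (32797 of 33557 IDs matched). Strand use in counting is not stated, so overlapping and antisense genes, and near-identical copies, are uncertain. The calling step was tested on simulated data.

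The members of the comparison, the 23 gene lists and marker sets were chosen with earlier results of these data known. The genes named were to be the 12 widest differences in each direction at 5 FPKM or more without rRNA and tRNA genes, every member of lists of up to 6 genes, of larger lists the 4 widest and the most abundant, and germination genes named by the study. The widest differences fell mostly on short RNA genes, which are given as counts, and some further list members were named after their values were seen. Alternatives were a pseudocount of 0.1 or 5, no filter or one at 5 FPKM, scaling to a median difference of 0 or to equal FPKM sums without storage proteins, a 4-fold call, and, added after the data were seen, protein-coding genes of 300 bases or more.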

Additional observations from a re-analysis of the deposited data

Results flagged for a closer look

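Of the protein-coding genes of 300 bases or more in RefSeq, 8 passed 2-fold in opposite directions in WT and *Δdella* seeds, 5 of them higher with GA in WT seeds. The difference between genotypes was not tested for any of them, since each group has 1 pooled value. *CRF10*, a cytokinin response factor, was at 2.91 FPKM on PAC + GA and 0.0128 FPKM on PAC in WT seeds, and at 0.0115 FPKM on PAC + GA and 12.1 FPKM on PAC in *Δdella* seeds, and the WT log2 difference minus the *Δdella* one was 5.64. For AT3G26539 the levels were 118 and 6.93 FPKM in WT seeds and 36.5 and 84.3 FPKM in *Δdella* seeds on PAC + GA and PAC, a gap of 5.09. AT2G13463 (2.17), AT2G42930 (2.51) and AT3G14340 (2.52) had the same signs at levels no higher than 4.65 FPKM. The opposite signs were found for AT3G44006 (-2.25), AT5G03204 (-8.15) and AT5G66607 (-4.40), and these 3 genes were listed at 0 on PAC in *Δdella* seeds. In the deposited table, 5 of the 8 genes span under 300 bases: AT2G13463 (186), AT3G26539 (114), AT3G44006 (180), AT5G03204 (111) and AT5G66607 (114). AT5G03204 was also listed at 0 on PAC + GA in WT seeds, against 30.3 FPKM on PAC.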

How the results depend on the processing

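No paired analysis was possible because the table holds 1 pooled value per group, and leaving out a replicate was not run for the same reason. Pseudocount, filter and fold cannot change the sign of a gene's difference, and the scaling without storage proteins shifted log2 ratios by only 0.10. The sign of a called gene therefore could not change. No list median of 1 or more in size changed sign. Of 138 genes over the filter named by the stated rules, 80 were called, 86 with 0.1 FPKM added and 74 with 5 FPKM. Their differences moved past a set margin in 37 genes with 0.1 FPKM and in 42 with 5 FPKM. The fold and the pseudocount moved the counts most. With 0.1 FPKM in place of 1, 774 genes were higher in WT seeds, 214 passed the fold in *Δdella* seeds and 396 with extract, and with 5 FPKM the counts were 225 higher and 172 lower in WT seeds, 55 in *Δdella* seeds and 109 with extract. A 4-fold call left 101 higher and 80 lower in WT seeds, 53 in *Δdella* seeds and 74 with extract. A filter at 5 FPKM left 66 in *Δdella* seeds and 154 with extract, and protein-coding genes of 300 bases or more 47 and 151. With no filter, 2 list medians in place of 5 reached 1 in size, since unexpressed members entered them. Scaling to equal FPKM sums without storage proteins moved the median of all genes to -0.09 and gave 445 higher and 373 lower, and 54.4% of calls were then higher in place of 60.7%. Single library variation, the depth of each library and counting error cannot be read from pooled FPKM. Genes at a few FPKM and genes listed at 0 are the least certain.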

Other observations

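Several gene families, picked after their values were seen, are given beside the shares of all protein-coding genes (2.82% higher, 1.78% lower), counting members in none of the lists. Of 24 measured SAUR genes, small auxin-induced genes linked to cell expansion, 10 were higher with GA and 2 were lower (median 0.90), led by AT5G66260 at 78.4 FPKM on PAC + GA, 3.40 FPKM on PAC and 84.3 FPKM on MS. Of 36 genes with GDSL in their product name, most of them lipases, 12 were higher and none was lower (median 0.41). Among them AT4G26790 was at 49.2 FPKM on PAC + GA and 3.86 FPKM on PAC. AT3G03210 (-0.12) and *PMR5* (0.51), labelled acyl-esterases of the Pmr5/Cas1p type, are counted in and were not called. Of 10 genes for 3-ketoacyl-CoA synthases, which elongate the fatty acids of wax and suberin, 6 were higher and none was lower (median 1.22), with *KCS8* at 29.9 and 5.22 FPKM. Of 24 arabinogalactan protein genes 7 were higher, *AGP12* (29.1 and 4.61 FPKM) and *AGP31* (134 and 32.7 FPKM) among them, and none was lower (median 0.64). Of 21 genes with serine carboxypeptidase in their product name 7 were higher and 1 was lower. Their median was 0.07, with 13 above 0 and 8 below it. Those below 0 include AT4G36195 (-0.60), AT4G36190 (-0.37) and AT5G65760 (-0.29), which are labelled S28 family and not serine carboxypeptidase-like. Among the higher ones was *scpl44* at 666 FPKM on PAC + GA, 79.2 FPKM on PAC and 796 FPKM on MS. Of 29 pectin lyase-like genes 7 were higher and none was lower (median 0.22, 20 above 0 and 9 below it).

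In the other direction, 5 of 17 cupin genes were lower and none was higher (median -0.21), among them AT2G28490 at 14.1 FPKM on PAC + GA and 98.5 FPKM on PAC. Besides *DOG1*, the 3 genes over the filter with delay of germination in their product name were lower. AT4G18690 was at 9.03 FPKM on PAC + GA, 56.0 FPKM on PAC and 2.34 FPKM on MS. Relatives of *DOG1* under other names were not searched for. Single genes picked for their values were *CYP79B2* (41.4 FPKM on PAC + GA, 6.60 FPKM on PAC), *CYP79B3* (13.6 and 1.39 FPKM) and *CYP81F4* (9.89 and 0.288 FPKM), cytochromes P450 of indole glucosinolate synthesis that were higher, and *AOP3*, a dioxygenase of aliphatic glucosinolates that was lower (7.93 and 87.7 FPKM). The papain-type protease *CP1* was among the most abundant genes that were higher, at 2678 FPKM on PAC + GA, 420 FPKM on PAC and 2825 FPKM on MS.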
